A study of Mus musculus with 7 samples.

Results

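The cytosolic ribosomal protein genes, which encode the protein subunits of the ribosome, were followed in sorted mouse long-term haematopoietic stem cells. Members were the rows of the normalized count table named Rpl or Rps with a number, with an optional a, x, l or al and a closing digit, together with Rplp0, Rplp1, Rplp2 and Rpsa; pseudogene names ending in -ps were left out. The rule found 88 of 19649 genes, of which 46 belong to the large subunit and 33 to the small subunit. A further 9, Rpl22l1, Rpl32l, Rpl36al, Rpl39l, Rpl3l, Rpl6l, Rpl7l1, Rps27l and Rps4l, carry a name ending in l or l1 and were kept apart as paralogues. A total of 87 members passed the filter, which asked for 10 or more normalized counts in 3 or more libraries. The exception was Rpl3l, a paralogue of Rpl3, with 0, 3.12, 0 and 2.49 normalized counts across wild-type 1 to 4, against 0, 3.57 and 6.04 across del52 1 to 3. In the GENCODE annotation Rpl32l, Rpl6l, Rps3a2 and Rps3a3 are processed pseudogenes and Rps4l is a transcribed one.

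The study compared 4 wild-type libraries (genotype Calr +/+ MxCre) with 3 del52 libraries (Calr fl/fl, given in the labels as Calr del52/del52, with MxCre), all from a Calr knock-in strain crossed with mice that carry MxCre. Calr encodes calreticulin, a chaperone of the endoplasmic reticulum, and del52 is a deletion allele of the kind found in myeloproliferative neoplasms. MxCre, a Cre recombinase under an interferon-responsive promoter that is not restricted to blood stem cells, was induced in both groups with pI:pC, a double-stranded RNA mimic. Cells were sorted 14 days after induction began as lineage negative, Kit and Sca-1 positive, CD48 negative and CD150 positive, and no other treatment was given. No age of the mice is stated in the labels. They also do not state whether the libraries are separate animals, and p-values then cover the spread among libraries only. In RNA from sorted populations, fewer cells of a type and less RNA per cell cannot be told apart.

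Ribosomal proteins are made in near equal amounts and assembled on ribosomal RNA in the nucleolus into a large and a small subunit. Their mRNAs are known for a terminal oligopyrimidine (TOP) tract, a run of C and U at the very start of the transcript through which mTOR and Larp1 control translation. Blood formation is known to be sensitive to the dose of these genes, since the loss of 1 copy of Rps19, Rpl5, Rpl11 and others causes Diamond-Blackfan anaemia.

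Because the members varied together across libraries, as described further on, the sequence at their transcription start sites is shown first. RefSeq promoter sequences (GRCm38.p6) were matched to 64 members with 76 start sites, and the 15 bases on either side of each start were searched for a run of at least 8 C or T in any order. Such a run was present at 38.2% of the members' start sites and at 12% of all 32851 RefSeq start sites. The share was 45% for the large subunit (40 sites), 29.6% for the small subunit (27 sites), 33.3% for the paralogues (9 sites) and 12% for mitochondrial ribosomal proteins (75 sites). On the other strand, a run of at least 8 G or A as read here, 3.95% of the members' sites and 13.2% of all sites had one. The motif CTTTC, which can lie inside such a run, was found at 22.4% and 4.05% of these sites, and its reverse complement GAAAG at 3.95% and 3.6%. The windows below were picked to show long runs in both subunits and the paralogue pairs described later; capitals mark the longest run where it reached 8 bases.
Rpl7a (large subunit, chr2:26910792-26910821, + strand): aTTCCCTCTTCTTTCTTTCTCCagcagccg
Rpl27a (large subunit, chr7:109519180-109519209, + strand): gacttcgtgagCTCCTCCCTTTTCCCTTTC
Rpl15 (large subunit, chr14:18270972-18271001, - strand): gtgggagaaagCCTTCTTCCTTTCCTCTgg
Rps10 (small subunit, chr17:27635230-27635259, - strand): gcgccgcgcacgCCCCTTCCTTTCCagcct
Rps18 (small subunit, chr17:33955651-33955680, - strand): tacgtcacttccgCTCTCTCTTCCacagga
Rps27 (small subunit, chr3:90213634-90213663, - strand): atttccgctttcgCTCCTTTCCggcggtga
Rps27l (paralogue of Rps27, chr9:66946071-66946100, + strand): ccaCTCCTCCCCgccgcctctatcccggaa
Rpl22 (large subunit, chr4:152325711-152325740, + strand): ttcgccctgggaaaagcaatagctggccga
Rpl22l1 (paralogue of Rpl22, chr3:28805493-28805522, + strand): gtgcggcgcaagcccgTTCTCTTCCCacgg
Rpl7l1 (paralogue of Rpl7, chr17:46782642-46782671, - strand): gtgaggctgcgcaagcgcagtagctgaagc

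The longest of these runs, in Rpl7a, was 21 bases, against 17 in Rpl15 and 10 in Rpl22l1. In Rpl22 and Rpl7l1 no run reached 8 bases in this window, which says only that these letters are not there. The differences between groups given below were near in size with and without a run. In the large subunit the median log2 difference, del52 minus wild-type, was 0.69 for 16 members with a run and 0.75 for 18 without, and in the small subunit 0.84 for 7 members and 0.77 for 16. A match is a description of the sequence, and RefSeq start sites need not be those used in these cells.

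The libraries held 21325340 to 28710304 counted reads. Wild-type 3 and 4 stood apart from the other 5 libraries. With limma, 4061 of 16047 genes were lower in wild-type 3 and 4 than in wild-type 1 and 2. Each library's slope of log2 deviation on log10 exonic length was 0.80 and 0.81 in wild-type 3 and 4 and between -0.57 and 0.03 in the others. The titles of wild-type 3 and 4 and of del52 1 and 2 carry numbers of 1 series, and no label says whether this marks a batch. Calr itself had 18606, 16639, 15922 and 15965 normalized counts across wild-type 1 to 4, against 14239, 15724 and 15317 across del52 1 to 3; a count over the whole gene does not show the deletion. All 10 stem cell markers had reads in every library, but their sum set the same pair apart, with normalized counts of 74135 (wild-type 3) and 65787 (wild-type 4), and of 37104 to 43400 in the other 5. Kit alone had 26511 and 25305 in wild-type 3 and 4 and between 2976 and 6677 elsewhere, while Ly6a, Slamf1, Procr and Hoxb5 were lowest in that pair. Neutrophil and monocyte markers, which the sort should remove, summed to between 45637 and 89704 normalized counts per wild-type library and between 10999 and 50361 per del52 library. Of these 13 markers 11 were lower in del52, and 0 were at 0 in any library. In 3 other marker lists the summed level did not overlap between the groups. Lymphoid markers (4 in the table, Ebf1 at 0 in del52 2) summed to between 141 and 219 per wild-type library and between 28 and 82 per del52 library. Mast cell and basophil markers (5, with Ms4a2 and Mcpt8 at 0 in some del52 libraries) summed to between 277 and 441, and then between 98 and 228. Erythroid markers (9) summed to between 34651 and 55385, and then between 55854 and 69804, of which Car2 made up most, while 6 of the 9 were lower in del52. The part of these markers in the results was not tested.

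The ribosomal protein genes took a larger share of the library in the del52 mean, with a spread inside each group as wide as the difference. Their share of normalized counts was 3.95% and 4.07% for wild-type 1 and 2, 2.03% and 2.15% for wild-type 3 and 4, and 4.95%, 3.46% and 5.90% for del52 1 to 3. The mean was 3.05% ± 1.11 (SD, n = 4) in wild-type, against 4.77% ± 1.23 (SD, n = 3) in del52. The groups overlapped because del52 2 lay below wild-type 1 and 2. Counted per length, the members took 8.56%, 8.77%, 5.64% and 5.99% of all FPKM (a level scaled to transcript length and to library size) across wild-type 1 to 4, against 10.8%, 8.14% and 12.1% across del52 1 to 3. The large subunit held 1.72% ± 0.624 of normalized counts in wild-type and 2.65% ± 0.663 in del52, the small subunit 1.26% ± 0.463 and 2.02% ± 0.544, and the paralogues 0.0752% ± 0.0220 and 0.0988% ± 0.0196. The share of the mitochondrially encoded genes lay in a like order, with 0.681%, 0.711%, 0.363% and 0.412% across wild-type 1 to 4, against 1.11%, 0.683% and 1.17% across del52 1 to 3; its part in the result was not tested.

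**Figure D1:**
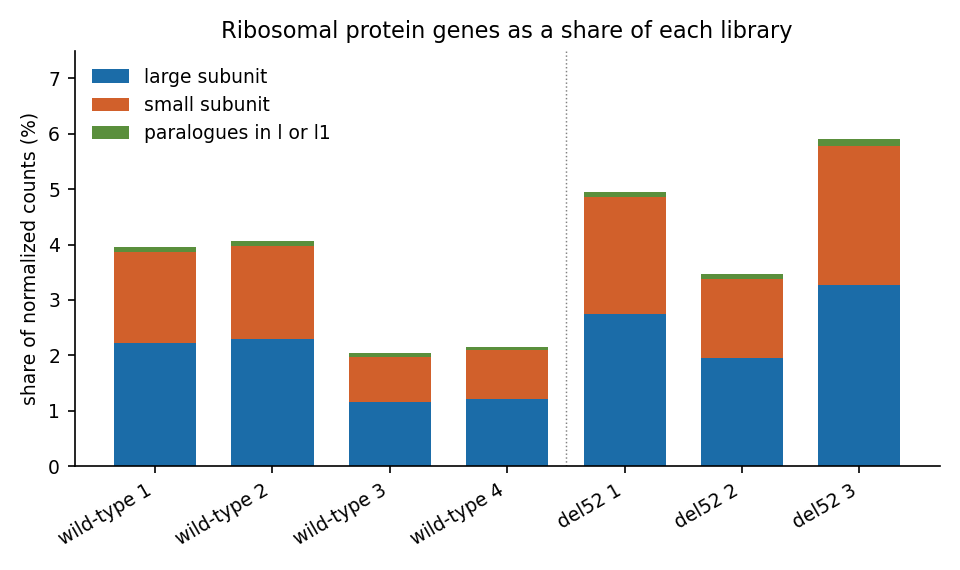
Share of all normalized counts (%) taken by the ribosomal protein genes in each of the 7 libraries, stacked by subunit and paralogues. Wild-type 3 and 4 are lowest at 2.03% and 2.15%, and del52 2, at 3.46%, lies below wild-type 1 and 2.

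No single member passed the test over all 7 libraries. Limma called 0 of the 87 tested members (background 0.0% of genes called), with a smallest adjusted p of 0.538. At an unadjusted p under 0.05 there were 27 members and 1365 of all 16047 genes. EdgeR on recovered reads called 0 members as well (background 0.0%; 20 members unadjusted), and DESeq2 called 0 members (background 0.667%; 30 members unadjusted). All 87 differences were positive, against 8034 of 16047 genes. The median log2 difference was 0.75 over the large subunit, 0.79 over the small subunit and 0.50 over the paralogues, beside 0.00 over all tested genes. Every del52 library lay above every wild-type library in 2 members, Rpl3 and Rpl22l1, which is 2.3% of members beside 5.23% of all tested genes.

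The size of the difference changed with the wild-type pair used as the reference. Against wild-type 1 and 2, 79 of 87 members were positive and the medians were 0.21 for the large subunit, 0.28 for the small subunit and -0.06 for the paralogues. Limma called 0 of these members (background 0.318%, 1 member unadjusted), and del52 lay wholly above that pair again in Rpl3 and Rpl22l1 alone (background 13.9%). Against wild-type 3 and 4, all 87 were positive, with medians of 1.27, 1.29 and 0.93. Limma called 84 of 87 higher in del52 (background 19.7%), all but the low rows Rpl39l, Rpl6l and Rps3a2. All members except Rpl39l, 86 of 87, did not overlap (background 33.8%). Both comparisons use the same 3 del52 libraries. The wild-type pairs differed from each other by about as much: 83 of 87 members were lower in wild-type 3 and 4 than in wild-type 1 and 2 by limma's test (background 25.3% lower), with medians of -1.05, -1.02 and -1.15. Rpl22l1 and the low rows Rpl39l, Rpl6l and Rps3a3 did not pass.

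Inside the title series that wild-type 3 and 4 share with del52 1 and 2, 81 members were higher in del52 (limma, background 16.4%), with medians of 1.05, 1.05 and 0.74. Outside it, wild-type 1 and 2 were set against del52 3 alone, which is assumed to vary like the other libraries, and 67 members were higher (limma, background 3.45%), with medians of 0.68, 0.71 and 0.43. With the series as a covariate in limma, 80 members were higher (background 9.96%) and the medians were 0.89, 0.92 and 0.67. This covariate put wild-type 1 and 2 and del52 3 together as the libraries outside the series, which is an assumption. No label says that they belong together. With the slope on exonic length as a covariate, limma called 0 members (background 0.785%, 34 members unadjusted), 81 were positive, and the medians were 0.20, 0.27 and -0.02. The members are short genes, with a median exonic length of 1730 bases beside 3787 over tested genes. The 3887 other tested genes of up to 2149 exonic bases had a median log2 difference of 0.34 over all 7 libraries, -0.02 against wild-type 1 and 2 and 0.66 against wild-type 3 and 4. The part of length in the members' difference was not tested beyond these values.

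**Figure D2:**
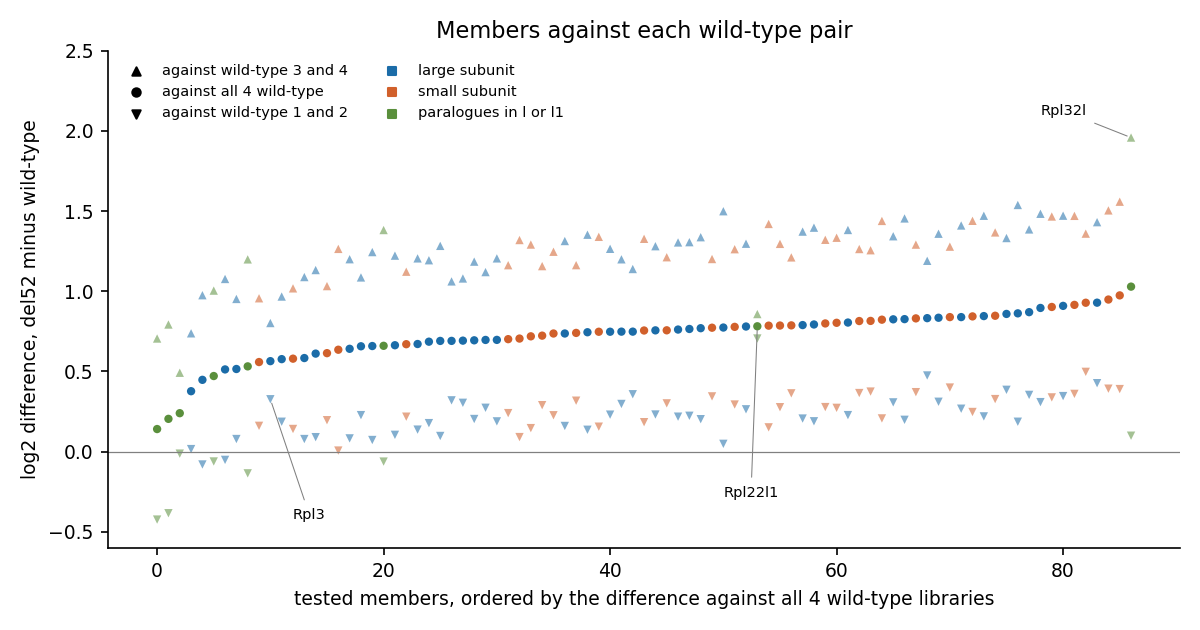
Log2 difference of normalized count, del52 minus wild-type, for the 87 tested members ordered by the difference against all 4 wild-type libraries (circles), with the difference against wild-type 3 and 4 (upward triangles) and wild-type 1 and 2 (downward triangles); colours give the subunit. The difference against all 4 libraries is the mean of the differences against the pairs, so it lies between them for any gene. Medians for the large subunit are near 1.27 against wild-type 3 and 4 and 0.21 against wild-type 1 and 2. Of the named paralogues, Rpl22l1 has the narrowest gap between the pairs.

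Large and small subunit genes varied together across libraries, as 1 block. The large subunit averaged a log2 deviation from the gene means of 0.21, 0.20, -0.86 and -0.80 across wild-type 1 to 4, against 0.46, -0.06 and 0.84 across del52 1 to 3. The small subunit had 0.18, 0.17, -0.87 and -0.81, and then 0.52, -0.06 and 0.88. Large minus small was 0.031, 0.033, 0.015 and 0.009 in wild-type and -0.054, 0.006 and -0.040 in del52. The group means of this offset differed by -0.05 on the log2 scale (-0.02 after quantile normalization), beside 0.75 for the block as a whole. The order del52 3, then del52 1, then del52 2 held in 45 of 46 large subunit members, in 33 of 33 small subunit members and in 6 of 9 paralogues.

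**Figure D3:**
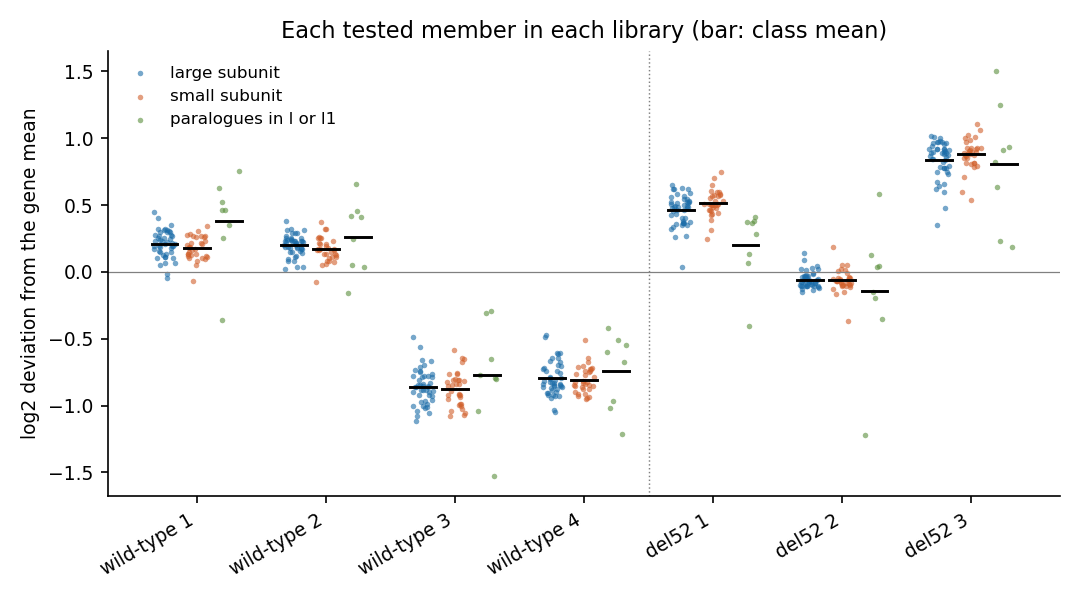
Log2 deviation of each tested member from its own mean over the 7 libraries, by library and class; short bars are class means. The points of each library lie in a narrow band for both subunits, at -0.86 and -0.80 for the large subunit in wild-type 3 and 4 and at 0.84 in del52 3, while the paralogues scatter more.

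The abundant members give the range behind these medians. Rpl32 of the large subunit (ENSMUSG00000057841.5, chromosome 6, 115805505 to 115808747, GRCm38) had the highest level per length, with 2435, 2647, 1301 and 1356 FPKM across wild-type 1 to 4, against 3721, 2188 and 4484 across del52 1 to 3. Its normalized counts were 26424 ± 9703 (n = 4) and 47236 ± 15147 (n = 3), a log2 difference of 0.86 (SE 0.34). Rps14 of the small subunit, also abundant per length, had a mean over all libraries of 1949 FPKM. In Rpl32 del52 2 was below wild-type 1 and 2 and above wild-type 3 and 4, as in 80 of the 87 tested members.

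Among the large subunit members the log2 difference was lowest in Rpl4, at 0.38. Rpl4 (chromosome 9, 64173375 to 64178666) had 47295, 43816, 26916 and 28299 normalized counts across wild-type, against 47847, 40245 and 50629 across del52, so that only del52 3 and del52 1 exceeded wild-type 1. Rpl15 and Rpl5 came next from below, at 0.45 and 0.51, and Rpl23 and Rpl23a were near the upper end, at 0.90 and 0.91. Rpl3, which lies by the peptidyl transferase centre (chromosome 15, 80077791 to 80091868), had 21642, 22888, 15903 and 16119 normalized counts across wild-type, against 28510, 24594 and 31013 across del52. It was the 1 large subunit gene without overlap, with a log2 difference of 0.56 (SE 0.20; 0.33 and 0.80 against the wild-type pairs). The stalk proteins, which recruit elongation factors, had 0.58 (Rplp0), 0.76 (Rplp1) and 0.79 (Rplp2). Rpl10, a late-joining subunit protein, had 7636, 7852, 4488 and 4958 normalized counts across wild-type, against 11153, 7804 and 14322 across del52, and its log2 difference of 0.47 against wild-type 1 and 2 was the largest of the large subunit.

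In the small subunit the differences ran from 0.56 in Rps2 to 0.97 in Rps28, with Rps6 at 0.58, the pseudogene Rps3a2 at 0.61, Rps27 at 0.93 and Rps21 at 0.95. Rps28 (chromosome 17, 33819027 to 33824562) had 3715, 3452, 1512 and 1677 normalized counts across wild-type, against 5203, 2988 and 6649 across del52. Here too del52 2 was the lowest del52 library and lay under wild-type 1 and 2. Rps6, the ribosomal substrate of the S6 kinases, had 11014, 10609, 6050 and 5726 across wild-type, against 12800, 9616 and 13766 across del52. Rpsa, a small subunit protein also known as the laminin receptor, had a log2 difference of 0.67. A list of 18 members mutated in Diamond-Blackfan anaemia had a median of 0.77, 0.22 against wild-type 1 and 2 and 1.32 against wild-type 3 and 4. Of these, Rps19, the gene most often mutated in that disease, had 19543, 19209, 10304 and 10736 normalized counts across wild-type, against 27089, 17622 and 33200 across del52. Rpl5 and Rpl11, which bind Mdm2 when assembly is disturbed, had 0.51 and 0.77. All 18 were higher by limma against wild-type 3 and 4 (background 19.7% higher), as were all tested members but Rpl39l, Rpl6l and Rps3a2. Over all 7 libraries 0 of the 18 passed (background 0.0%, 5 of the 18 unadjusted).

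Set against the mean of the 77 protein-coding members of both subunits, 71 of the 77 stayed within 0.2 of the block on the log2 scale. The SD of the log2 difference over these 77 was 0.115, beside 0.580 over all tested genes. Relative to the block, 3 of the 77 were lower in every del52 library than in every wild-type library, and 5 were higher. In plain normalized counts, 4.34% of all tested genes were lower and 5.23% higher in this sense. Shares relative to the block were not computed for all genes. The lower members were Rpl13a, Rpl6 and Rpl18, with differences of -0.23, -0.16 and -0.11. Rpl14, Rpl36, Rpl23a and Rps21 were among those higher in the same sense, with 0.03, 0.12, 0.16 and 0.20. The extremes were Rpl4 at -0.37 and Rps28 at 0.23, whose groups overlapped. Over the same 77 members the log2 difference was lower for longer leading transcripts (lengths 345 to 1908 bases). Spearman's rho across these genes, which share libraries and are not independent replicates, was -0.48, with -0.22 against wild-type 1 and 2 and -0.54 against wild-type 3 and 4.

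The paralogues differed among themselves. Rpl22l1, a paralogue whose mRNA is known to be repressed by the Rpl22 protein (ENSMUSG00000039221.10, chromosome 3, 28805436 to 28807424), had 3002, 3453, 3110 and 2699 normalized counts across wild-type, against 4978, 3950 and 7365 across del52. In normalized counts the 4 wild-type libraries lay close together, with no split between the pairs, and all 3 del52 libraries lay above them. Per length the pairs were split, with 240.0 and 251.8 FPKM in wild-type 1 and 2 and 172.7 and 189.4 in wild-type 3 and 4, against 330.1, 268.7 and 499.5 across del52. Its log2 difference was 0.78 (SE 0.23) over all libraries, 0.71 against wild-type 1 and 2 and 0.86 against wild-type 3 and 4, and limma's adjusted p was 0.538, 0.361 and 0.0232. DESeq2 did not call it over all libraries either (adjusted p = 0.117), and this was the smallest DESeq2 value among the members. Its promoter window holds the run printed above. Per length, Rpl22l1 stood at 71.0%, 71.4%, 118% and 115% of Rpl22 FPKM across wild-type, against 75.9%, 99.3% and 87.7% across del52, with overlapping groups. Transcripts of Rpl22l1 annotated as keeping an intron took 5.67% and 13.5% of its FPKM in wild-type 1 and 2. They took 47.4% and 29.3% in wild-type 3 and 4, and 24.8%, 28.9% and 26.7% across del52. The normalized count of Rpl22l1 thus pools a transcript mix that differed between the wild-type pairs.

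Rpl7l1, a factor related to Rpl7 (chromosome 17, 46773907 to 46782672), had 9872, 8578, 6773 and 6214 normalized counts across wild-type, against 9115, 8536 and 9761 across del52, so the groups overlapped and the log2 difference was 0.24. As a percent of Rpl7 FPKM it was 28.7%, 25.6%, 34.2% and 28.3% across wild-type, against 20.2%, 24.2% and 17.3% across del52. All del52 ratios lay below all wild-type ratios, in counts as well as in FPKM. The leading transcript of Rpl7l1 has 2606 bases and that of Rpl7 has 838, and the libraries differed in their slope on length. The part of length in this ratio was not tested. The transcribed pseudogene Rps4l (chromosome 6, 148354656 to 148355598) had 1391, 1728, 695 and 722 normalized counts across wild-type, against 1453, 854 and 1243 across del52. Its percent of Rps4x FPKM was 11.4%, 15.1%, 11.1% and 10.6% across wild-type, against 9.60%, 7.85% and 6.49% across del52, again without overlap. Such ratios were not computed outside the paralogues, so neither the Rpl7l1 nor the Rps4l ratio has a background share. Because a processed copy is near identical to its parent, reads assigned to Rps4l, Rpl32l, Rpl6l or Rps3a2 may belong to the parent.

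Rps27l, a paralogue of Rps27 known as a p53 target, had 7625, 7342, 2682 and 2819 normalized counts across wild-type, against 7139, 4970 and 10375 across del52. Its log2 difference was -0.06 against wild-type 1 and 2 and 1.38 against wild-type 3 and 4, while Rps27 had 0.50 and 1.36. Rpl36al, an autosomal copy of the X-linked Rpl36a, had -0.14 and 1.20, with 1303, 1265, 555 and 467 counts across wild-type, against 1153, 826 and 1677 across del52. The low paralogues Rpl39l, Rpl32l and Rpl6l stayed below 50 normalized counts in every library, and Rpl39l ranged from 5.36 to 41.1 inside the del52 group. Rpl32l had the highest log2 difference of all members, 1.03 (SE 0.62), on counts of 27.3, 26.0, 5.84 and 7.48 across wild-type, against 24.7, 20.5 and 45.9 across del52. Pseudogene rows ending in -ps, present for 52 members, held at most 10.1% of their parent's count, in Rpl38.

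**Figure D4:**
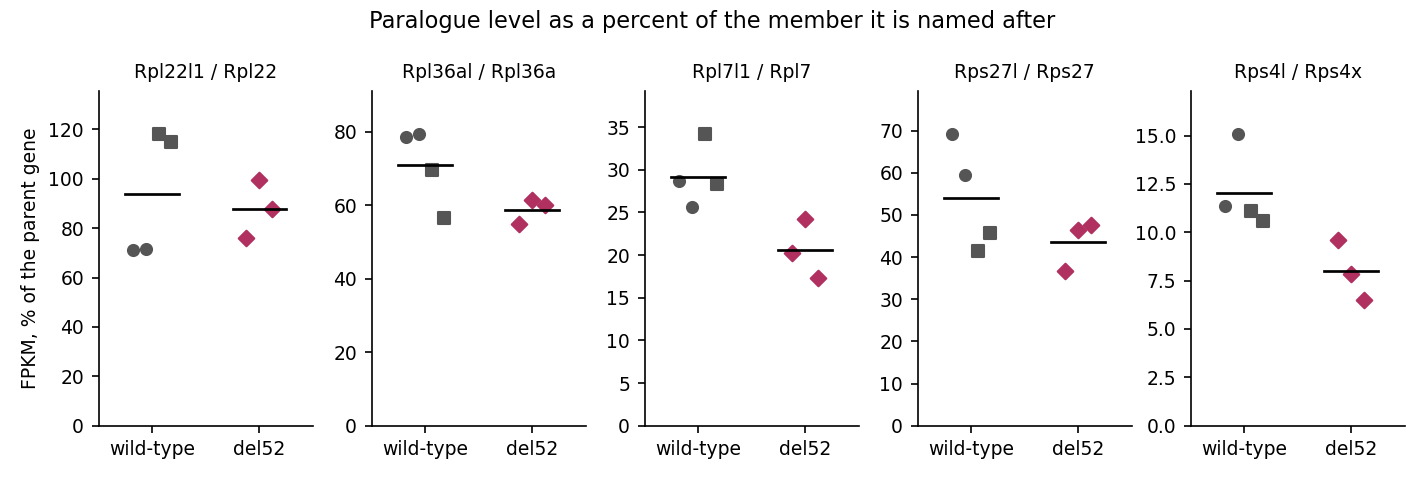
FPKM of 5 paralogues as a percent of the member each is named after, by library (circles, wild-type 1 and 2; squares, wild-type 3 and 4; diamonds, del52; bars, group means). The del52 values of Rpl7l1 and Rps4l, 17.3% to 24.2% and 6.49% to 9.60%, lie below all wild-type values, and the other 3 overlap.

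Transcripts of the members showed 1 shift that the gene totals do not. Limma called 0 of 404 tested member transcripts of 83 members over all libraries (background 0.0% of 30156; 38 of the 404 unadjusted), and 308 of them were positive. As a percent of the member's own FPKM, however, transcripts annotated as retained intron, which keep an intron that the coding mRNA lacks, were lower in del52. Of 141 such transcripts of the members 123 had a lower mean percent, beside 3731 of 5740 over all genes. Against wild-type 1 and 2 alone 101 were lower (3594 over all genes), and against wild-type 3 and 4 alone 130 (3463 over all genes). Of the 141, 29 were lower in every del52 library than in every wild-type library, and 0 were higher in that sense (9.02% of all retained-intron transcripts were lower). Summed per gene, 16 of 64 members, 25%, were lower without overlap and 0 were higher (background 8.61% lower). Among the other 6408 genes with such transcripts 541 were lower and 58 higher, so lower percents were the more common direction outside the members too. By mean percent per gene, 41 of the 64 members were lower against wild-type 1 and 2, beside 4131 of the 6408 others. Against wild-type 3 and 4, 57 of the 64 were lower, beside 3952 of the 6408. Most members were thus lower against either pair. By this count per gene, they were lower more often than other genes against wild-type 3 and 4, and not against wild-type 1 and 2. These counts were chosen after the values were seen.

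The members of this group belonged to both subunits. Rpl3 had 4.68%, 5.0%, 8.04% and 5.98% of its FPKM in retained-intron transcripts across wild-type 1 to 4, against 2.89%, 4.55% and 2.80% across del52 1 to 3. Rpl5 had 8.43%, 10.5%, 11.5% and 9.38%, and then 5.44%, 5.82% and 7.46%. Rps18, of the small subunit, had 6.14%, 6.95%, 7.35% and 6.19%, and then 3.94%, 5.33% and 4.10%. These 3 genes are examples chosen because their groups did not overlap. Without wild-type 3 and 4 the counts were 21 members lower and 5 higher of 64. Beside these, 19% of the 6408 other genes were lower and 363 of the 6408 higher. Without wild-type 1 and 2 the counts were 41 members lower and 2 higher, beside 32.4% of the other genes lower and 911 of the 6408 higher. Pooled over all 64 members the percent was 6.31%, 6.77%, 8.07% and 7.01% across wild-type, against 6.53%, 6.48% and 6.54% across del52, so that wild-type 1 lay under the del52 libraries. This pooled value is weighted by Rps16, Rps20 and Rps26, in which an estimated 76.8% to 93.1% of FPKM was assigned to retained-intron transcripts in the group means.

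**Figure D5:**
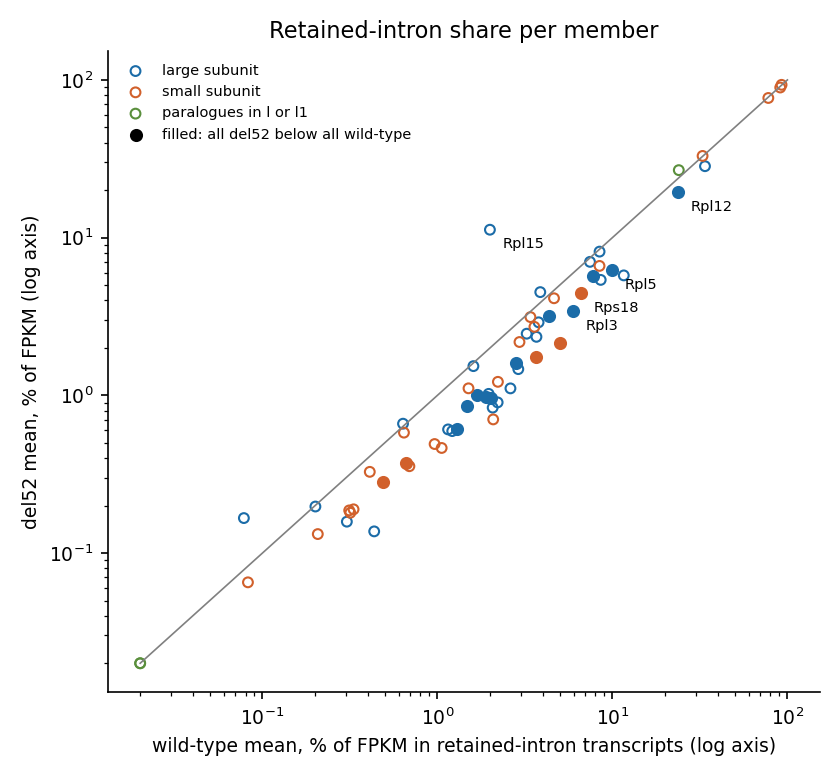
Percent of each member's FPKM in retained-intron transcripts, wild-type mean (x) against del52 mean (y), for 64 members on log axes, with means under 0.02% drawn at 0.02; filled points are the 16 members in which every del52 library was below every wild-type library, and the line marks equal percents. Most points lie below the line, and the point far above it is Rpl15, at 1.99% and 11.2%.

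Rpl15 went the other way in del52 1 and, by less, in del52 3. Its retained-intron percent was 1.27%, 2.15%, 1.86% and 2.698% in wild-type 1 to 4, 27.9% in del52 1, 1.47% in del52 2 and 4.34% in del52 3. In del52 1 its normalized count, 7424, was the lowest of the del52 group, while most members were lowest in del52 2. Coding transcripts of the members went both ways. Of 193 tested, 101 had a higher and 92 a lower mean percent of their gene's FPKM in del52. Without overlap 10 were higher and 10 lower, 5.18% each, beside 4% and 2.64% over all genes. Among those with a higher percent, the coding transcript Rpl5-201 took 37.7% ± 1.29 (n = 4) of Rpl5 FPKM in wild-type and 43.0% ± 2.52 (n = 3) in del52. Rpl30-201 took 71.6% ± 2.72 of Rpl30 and then 76.4% ± 1.86. These percents come from the authors' estimates of overlapping transcripts and share reads between them.

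Genes that act with the ribosomal proteins were mixed. Fau and Rack1, ribosomal proteins outside the naming rule, had log2 differences of 0.79 and 0.49 over all libraries, 0.28 and 0.04 against wild-type 1 and 2, and 1.31 and 0.95 against wild-type 3 and 4. Elongation factors and other genes of the TOP class were positive in 12 of 14, with a median of 0.46 (0.17 and 0.87 against the pairs). Eef1a1, the factor that delivers aminoacyl-tRNA, had 70612, 68243, 51559 and 57225 normalized counts across wild-type, against 86510, 76380 and 86463 across del52, without overlap. Eef2 and Eif4b had -0.08 and -0.23. Genes of ribosome assembly had a median of -0.15, and 21 of 22 were below wild-type 1 and 2 on average (median -0.27; limma called 0, with 4 unadjusted). Against wild-type 3 and 4 the median was -0.07. Limma called 8 higher (background 19.7%) and 5 lower, from -2.33 in Heatr1 to 1.29 in Nop58. The share of all genes that limma called lower against this pair is not given here. By non-overlap, another measure, 33.8% of all tested genes were lower in del52 against it. The ribosomal RNA polymerase subunit Polr1a had 1195, 1027, 2136 and 2010 normalized counts across wild-type, against 768, 1070 and 758 across del52, while Nop58, which binds box C/D RNAs, had a difference of 0.61. A list of genes that control TOP mRNA translation or the ribosomal genes, with Myc, Mycn, Max, Mdm2 and Trp53 among them, had a median of 0.08. Larp1 had -0.61 and Mtor -1.04, with -0.27 and -0.32 against wild-type 1 and 2. Over all 7 libraries limma, edgeR and DESeq2 each called 0 genes of these 4 lists; at an unadjusted p, limma had 0, 2, 2 and 2 in the order given.

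The mitochondrial ribosomal proteins, which form the ribosome of another compartment, stood lower than the cytosolic ones against wild-type 1 and 2. Over all libraries 77 of 78 were positive with a median of 0.41, and against wild-type 3 and 4 all 78 were positive with a median of 0.94. Against wild-type 1 and 2, 14 of 78 were positive, with a median of -0.11, where 79 of 87 cytosolic members were positive. Outside the shared title series there was 1 del52 library, del52 3. In it the mitochondrial list averaged a log2 deviation of 0.56, beside 0.38 and 0.31 in wild-type 1 and 2. The cytosolic members had 0.85, beside 0.21 and 0.19. The difference between the 2 lists was not tested.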

How the data were processed

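RNA sequencing libraries of sorted mouse stem cells, 4 wild-type and 3 del52, were analysed. Per the labels' protocols, PicoPure RNA was turned into cDNA with SMART-Seq v4, and unstranded libraries were built from sheared cDNA with Swift 2S Plus, so overlapping genes on opposite strands share reads. The gene signal deposited by the authors is a normalized count. Its values are whole multiples of 1 step per library for 100% of genes (tolerance 0.01 reads), so whole reads were recovered. FPKM of 66660 transcripts was deposited by the authors as the second table. The build GRCm38 and the tools STAR 2.7.3a, HTSeq 0.6.1, DESeq2 1.12.4 and Cufflinks 2.2.1 are named, per the submitters' processing notes. Their settings are not given in the labels.

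Genes with 10 or more normalized counts in 3 or more libraries (16047) were tested with limma 3.58.1 (R 4.3.3) of log2 values after adding 1, using a trend of the variance, two-sided, Benjamini-Hochberg threshold 0.05. Log2 differences are therefore on the log2(value + 1) scale. Transcripts with FPKM of 1 or more in 3 or more libraries were tested on log2(FPKM + 1). edgeR 4.0.16 and DESeq2 1.42.0 on recovered reads were alternatives, as were other pseudocounts, filters, scalings, covariates and left-out libraries. Annotation came from GENCODE M21. The fits were tested on simulated data. Genes named in the text were the paralogues and their parents, the 3 largest and 3 smallest differences and 3 highest FPKM in each subunit, 10 members chosen by role, any called member, and the 3 lowest without wild-type 3 and 4. Some genes that this rule names are not reported here. Other genes are named from fixed lists or after their values were seen (the retained-intron, start-site and block-relative examples). The members and lists were chosen with earlier results of these data known. Means are given ± SD over libraries.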

Additional observations from a re-analysis of the deposited data

How the results depend on the processing

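Medians of both subunits stayed positive in every alternative run, and the median of the paralogues turned negative without wild-type 3 and 4 (-0.06) and with the length slope as a covariate (-0.02). With the slope the large subunit median was 0.20, and with quantile normalization the large minus small offset was -0.022. The count of members called by limma, 0 over all libraries, became 67 outside the shared title series, 80 with the series as a covariate, 81 inside it and 84 without wild-type 1 and 2; for transcripts the last of these gave 173. Those 173 transcript calls, 172 higher and 1 lower, were among 404 member transcripts. Without wild-type 1 and 2, limma called 6778 of all 30156 tested transcripts (background 22.5%, both directions). The share of the members differed by 3.10 points of the FPKM of transcripts matched to a gene name (3.08 of all FPKM), beside 1.72 of normalized counts. Of 37 named and tested genes 29 kept 1 sign in every alternative. With the length slope the sign turned in Rpl15 (-0.037), Rpl36al (-0.13), Rpl39l (-0.57), Rpl5 (-0.023), Rps27l (-0.047) and Rps4l (-0.40). Without wild-type 3 and 4 it turned in Rpl15 (-0.080), Rpl36al (-0.14), Rpl39l (-0.38), Rpl5 (-0.051), Rpl6l (-0.061), Rpl7l1 (-0.012), Rps27l (-0.062) and Rps4l (-0.42), and outside the series in Rps4l (-0.32). With 1 library left out, Rpl39l ranged from -0.49 (without del52 3) to 0.87 (without del52 2), and Rps4l from -0.057 (without wild-type 3) to 0.38 (without wild-type 2). The members with a lower retained-intron percent, 16, ranged from 16 (without del52 1) to 29 (without del52 2) with 1 library left out, and were 41 without wild-type 1 and 2; these alternatives were chosen after seeing the data. The cause was not tested. No paired analysis was possible because the groups share no replicate numbers in the labels. The shallowest library held 21325340 reads, and the lowest paralogues were limited by their counts.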
